A study of Homo sapiens with 12 samples.

Results

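HSD11B1, H6PD, the glucocorticoid receptor gene NR3C1 and 7 genes known as direct targets of that receptor were followed through RNA-seq counts of 2 triple negative breast cancer cell lines with and without CD44. The 10 genes were taken by symbol from the 58381 genes of the count table, as the route from cortisol activation over the receptor to its targets, and 9 of them passed the filter on low counts, among 15836 genes of the whole table. HSD11B1 was selected on its higher CPM in MDA-MB-231 CD44 KO than in CD44 WT cells, so its values in that comparison are given as a description without a test. The other 9 were selected on their known roles, with earlier results of these data known. ZBTB16 had 0 counts in all 12 libraries and was not tested.

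Hs578T and MDA-MB-231 cells, both mesenchymal breast cancer lines, carried a doxycycline-inducible Cas9 under puromycin selection. CD44 KO cells had received guide RNAs to exons 1 and 5 of CD44 and were sorted as CD29+ and CD44-, while CD44 WT cells had received the transfection reagent only and were sorted as CD29+ and CD44+. Both were expanded as sorted populations rather than as single clones, and were starved in low serum before RNA was taken. Each of the 4 groups, CD44 WT and CD44 KO of each line, had 3 libraries. The growth medium contained fetal bovine serum, the labels name no added glucocorticoid, and no steroid level was measured. It is not stated whether the libraries of a group are separate cultures, so p-values measure only the spread between these libraries.

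Glucocorticoids such as cortisol act through a receptor that waits in the cytoplasm with chaperones, enters the nucleus when it binds the hormone and switches target genes on or off. Cells can make their own active hormone: 11β-hydroxysteroid dehydrogenase type 1, the product of HSD11B1, converts inactive cortisone into cortisol inside the endoplasmic reticulum, with NADPH that H6PD supplies. The enzyme is best known from liver and fat, and it is induced by inflammatory cytokines in fibroblasts and other mesenchymal cells. FKBP5, TSC22D3, PER1, DUSP1, SGK1, ZBTB16 and KLF9 are genes that the hormone-bound receptor commonly induces.

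Total counts per library ranged from 10257586 to 19725543. CD44 itself averaged 507 CPM (the count scaled to the library's total and edgeR's TMM factor) in Hs578T CD44 WT and 27.3 in CD44 KO, and 362 and 34.2 CPM in MDA-MB-231, in the direction of the labels. MDA-MB-231 CD44 WT replicate 1 had the lowest mean rank correlation with its own group, 0.988 against at most 0.996 in the other libraries. Markers of mesenchymal cells summed to 4126 to 4341 CPM in CD44 WT against 5347 to 5559 in CD44 KO of Hs578T, and to 5516 to 5785 against 7141 to 8188 CPM in MDA-MB-231, with TWIST1 at 0 in the latter line, and the luminal list to at most 36.3 CPM. VIM held most of the mesenchymal sums, averaging 3862 CPM in CD44 WT and 5041 in CD44 KO of Hs578T, and 4896 and 6609 in MDA-MB-231. In CD44 WT and CD44 KO of Hs578T, AXL averaged 280 and 271 CPM and TWIST1 1.47 and 25.3 CPM. PGR was at 0 in every library, ESR1 also in MDA-MB-231 CD44 KO, and the list of ESR1, PGR and ERBB2 summed to 57.4 to 102 CPM. Endothelial markers summed to 14.8 to 17.5 CPM in Hs578T and to 1.69 to 4.15 CPM in MDA-MB-231. One MDA-MB-231 CD44 WT library is known by its group only and has no replicate number here.

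The start regions of the genes on which the results turn are printed first, so that the letters known to be read by the receptor can be looked for. They are 300 bases long, reach from before an annotated start to shortly after it and are written 5′ to 3′ on the gene's strand. HSD11B1 is shown because it was picked, with both groups of its annotated starts; 3 of its 4 transcripts in GENCODE version 44 start between 209686178 and 209686269 on chromosome 1, while the canonical one starts at 209704846. TSC22D3 is shown at 2 of its 4 RefSeq starts because it was the target that passed the test, and FKBP5 and DUSP1 because they hold letters that were searched, which are in capitals. All are on GRCh38, from RefSeq except the second HSD11B1 region, which was read from the genome sequence.
HSD11B1, chr1:209685929-209686228, plus strand: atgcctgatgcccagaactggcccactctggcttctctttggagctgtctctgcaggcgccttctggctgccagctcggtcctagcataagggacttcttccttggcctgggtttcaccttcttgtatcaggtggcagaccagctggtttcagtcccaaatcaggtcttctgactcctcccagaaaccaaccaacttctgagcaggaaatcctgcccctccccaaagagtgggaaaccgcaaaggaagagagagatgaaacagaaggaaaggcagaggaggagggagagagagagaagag
HSD11B1, chr1:209704596-209704895, plus strand: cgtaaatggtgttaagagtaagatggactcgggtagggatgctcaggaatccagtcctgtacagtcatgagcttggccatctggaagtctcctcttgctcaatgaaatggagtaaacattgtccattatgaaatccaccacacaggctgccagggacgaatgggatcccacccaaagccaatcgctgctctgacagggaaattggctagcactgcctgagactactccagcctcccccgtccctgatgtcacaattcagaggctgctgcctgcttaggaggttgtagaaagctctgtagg
TSC22D3, chrX:107717013-107717312, minus strand: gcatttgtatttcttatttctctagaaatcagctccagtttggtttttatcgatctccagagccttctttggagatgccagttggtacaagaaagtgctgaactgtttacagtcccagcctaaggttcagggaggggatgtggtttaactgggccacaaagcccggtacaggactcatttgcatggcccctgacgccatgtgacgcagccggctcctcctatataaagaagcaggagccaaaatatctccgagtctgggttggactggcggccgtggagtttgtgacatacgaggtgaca
TSC22D3, chrX:107775939-107776238, minus strand: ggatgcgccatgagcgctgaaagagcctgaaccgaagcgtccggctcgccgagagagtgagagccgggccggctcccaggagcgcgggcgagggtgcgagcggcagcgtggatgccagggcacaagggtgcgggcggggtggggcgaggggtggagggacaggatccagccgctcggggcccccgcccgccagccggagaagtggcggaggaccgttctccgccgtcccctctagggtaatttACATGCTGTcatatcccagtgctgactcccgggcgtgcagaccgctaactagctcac
FKBP5, chr6:35728534-35728833, minus strand: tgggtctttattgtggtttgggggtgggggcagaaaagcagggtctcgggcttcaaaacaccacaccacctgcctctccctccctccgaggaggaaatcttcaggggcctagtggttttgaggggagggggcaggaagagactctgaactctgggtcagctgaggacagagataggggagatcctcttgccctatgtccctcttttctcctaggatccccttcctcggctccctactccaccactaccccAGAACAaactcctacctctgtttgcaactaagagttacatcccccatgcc
DUSP1, chr5:172771146-172771445, minus strand: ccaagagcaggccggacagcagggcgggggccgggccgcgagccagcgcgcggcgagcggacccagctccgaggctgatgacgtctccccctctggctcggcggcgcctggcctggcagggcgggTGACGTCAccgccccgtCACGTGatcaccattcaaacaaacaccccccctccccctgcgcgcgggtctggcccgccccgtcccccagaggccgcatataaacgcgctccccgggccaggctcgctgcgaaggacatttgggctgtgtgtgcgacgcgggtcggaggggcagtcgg

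The search covered both strands of 35116 RefSeq start regions of this length, of which 21 belonged to 9 of the 10 genes. The full glucocorticoid response element, AGAACA and TGTTCT spaced by 3 free bases, stood in 0.00285% of all regions and in none of the 21. Its inner letters ACANNNTGT, which the full element contains, stood in 5.37% of all regions and in 2 of the 21, which are overlapping regions of TSC22D3 and hold the same ACATGCTGT, beginning 7 bases before the start in the region printed. The hexamer AGAACA, the first 6 letters of the element, stood in 14.8% of all regions and in those of FKBP5, H6PD and SGK1, at the first base of the start in the FKBP5 region. DUSP1 held the cyclic AMP response element TGACGTCA, found in 1.85% of all regions, and the E-box CACGTG, found in 7.26%, which PER1 and another region of FKBP5 also held. The C/EBP site TTGCGCAA, found in 0.151% of regions, was in none of the 21. Neither HSD11B1 region held any of these letters. A match describes the sequence only, and receptor binding was not measured.

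HSD11B1 was at its lowest in MDA-MB-231 CD44 WT cells and at a similar level in the other 3 groups. It is listed as ENSG00000117594.9 on the plus strand of chromosome 1, from 209686178 to 209734950. In MDA-MB-231 CD44 WT the libraries had 1.80, 2.92 and 1.34 CPM, from 21, 36 and 15 counts. In MDA-MB-231 CD44 KO they had 8.47, 10.1 and 17.1 CPM, from 100, 191 and 173 counts. Each CD44 KO library was thus above each CD44 WT library of this line, the comparison on which the gene was picked. The fitted difference was 2.53 on the log2 scale (SE, SE, the standard error of the fit, 0.346), a 5.76-fold higher count in CD44 KO, and it ran from 2.21 to 2.90 over all other settings and left-out libraries. Means were 2.02 ± 0.814 CPM in CD44 WT and 11.9 ± 4.57 CPM in CD44 KO (SD, n = 3).

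In Hs578T HSD11B1 was counted at 7.70, 9.38 and 4.57 CPM in CD44 WT and at 8.10, 12.4 and 10.3 CPM in CD44 KO. The ranges overlap, and the fitted change from CD44 WT to CD44 KO was 0.51 on the log2 scale (SE 0.294, approximate 95% interval -0.07 to 1.09, adjusted p = 0.288 by the edgeR fit over all genes). A change in Hs578T was therefore not shown. The order of the group means was MDA-MB-231 CD44 WT at 2.02, Hs578T CD44 WT at 7.21, Hs578T CD44 KO at 10.3 and MDA-MB-231 CD44 KO at 11.9 CPM. Each neighbouring pair among the last 3 groups overlaps in its libraries, while all libraries of MDA-MB-231 CD44 WT lie below those of the other groups. Between the WT groups the fitted level was 3.54-fold higher in Hs578T. This is given without a test, because the low level in MDA-MB-231 CD44 WT is part of the comparison that picked the gene.

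These are bulk samples, in which fewer cells that express a gene and less RNA per cell cannot be told apart. Markers of the tissues best known for the enzyme were near 0: the adipocyte list ranged in sum from 0.343 up to 0.535 CPM for CD44 WT and from 0.508 up to 0.742 CPM for CD44 KO in MDA-MB-231, with ADIPOQ and LEP at 0. The hepatocyte list reached at most 0.597 CPM in any library. The antisense gene HSD11B1-AS1, which overlaps HSD11B1 on the minus strand, had 35 counts over all 12 libraries, and fragments were counted by strand.

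H6PD, the supplier of NADPH to the enzyme, was measured at 69.4, 80.0 and 61.0 CPM in Hs578T CD44 WT and at 61.9, 76.9 and 69.9 CPM in CD44 KO. In MDA-MB-231 it was at 27.0, 30.2 and 32.5 CPM in CD44 WT and at 21.9, 25.3 and 27.8 CPM in CD44 KO. The libraries overlap within each line, and the lines are well apart. Fitted log2 fold changes were -0.01 in Hs578T (95% interval -0.25 to 0.23, adjusted p = 0.980) and -0.26 in MDA-MB-231 (95% interval -0.51 to -0.01, adjusted p = 0.245, same test). Neither passed the threshold of an adjusted p of 0.01. All 95% intervals here take the standard error as normal and are narrower than the edgeR test allows. The MDA-MB-231 interval leaves out 0, while the unadjusted p was 0.0636 (edgeR).

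NR3C1, the receptor, had 67.6, 59.6 and 57.5 CPM in Hs578T CD44 WT and 57.1, 61.4 and 58.0 CPM in CD44 KO. In MDA-MB-231 it had 86.7, 127 and 152 CPM in CD44 WT and 148, 138 and 128 CPM in CD44 KO. The lowest of the MDA-MB-231 values belongs to CD44 WT replicate 1, the library least like its group. Fold changes in CD44 KO were -0.07 in Hs578T (95% interval -0.36 to 0.23, adjusted p = 0.837) and 0.17 in MDA-MB-231 (95% interval -0.11 to 0.46, adjusted p = 0.521) on the log2 scale, and the latter was -0.02 without that library.

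**Figure D1:**
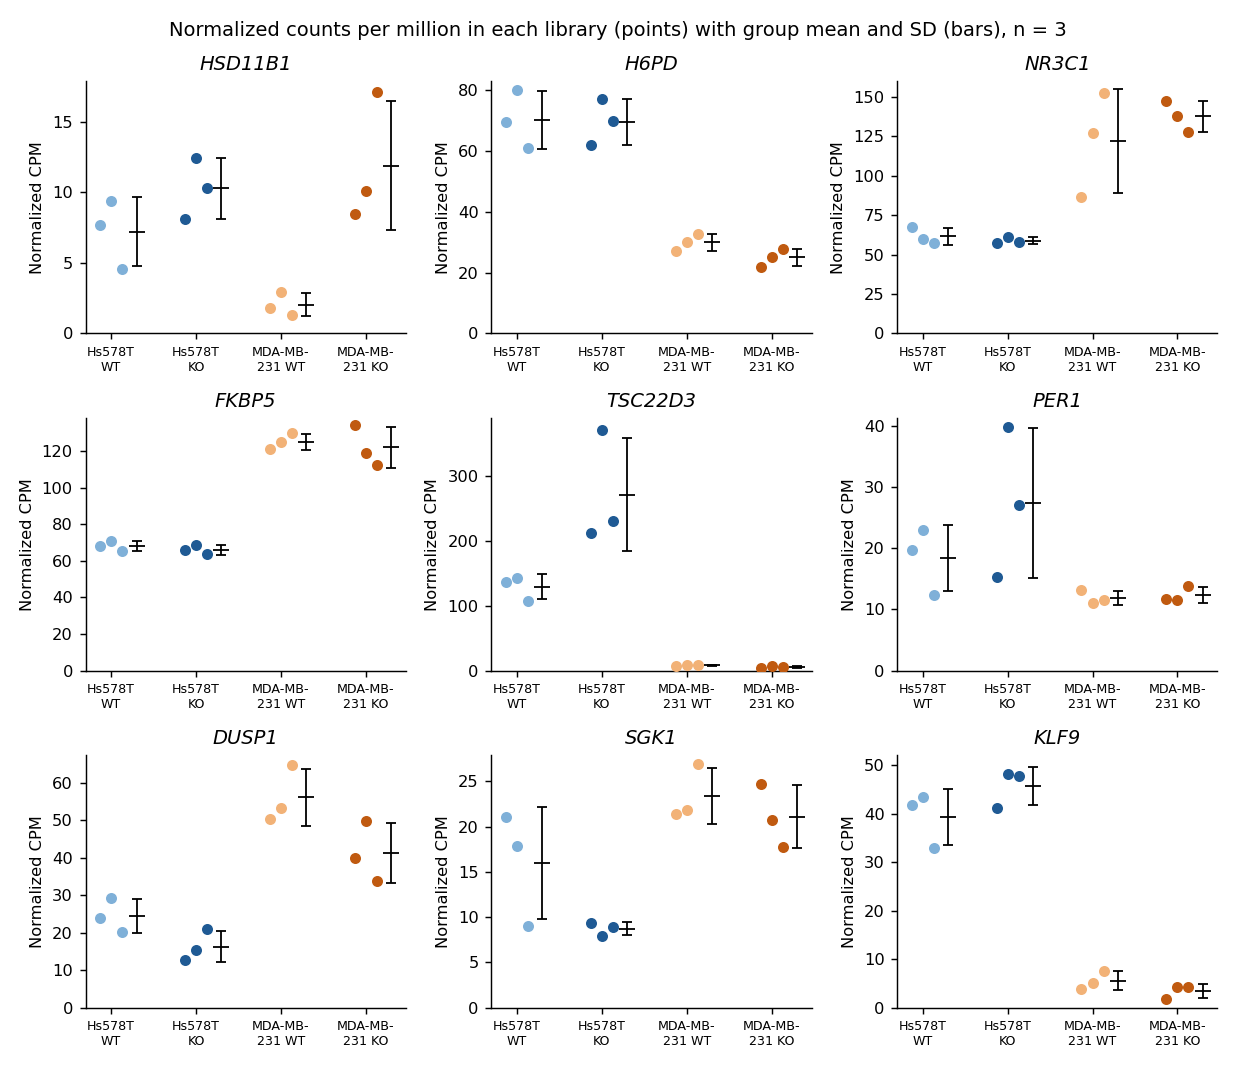
Each panel gives 1 gene in normalized CPM on an axis from 0, with a point per library and the mean and SD of the 3 libraries of each group. HSD11B1 is low only in MDA-MB-231 CD44 WT among the 4 groups, a level that is part of what picked it. TSC22D3 is highest in Hs578T CD44 KO, and FKBP5 separates by line and not by CD44.

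Of the 7 targets, TSC22D3 was the one that passed the test between CD44 KO and CD44 WT in Hs578T, where its counts rose 2.099-fold. TSC22D3 encodes GILZ, a leucine zipper protein that restrains NF-κB and AP-1. It is listed as ENSG00000157514.16 on the minus strand of chromosome X, from 107713221 to 107777342, and the counts do not separate its several starts. The Hs578T CD44 WT libraries had 136, 143 and 108 CPM and the CD44 KO libraries 212, 370 and 230 CPM. No libraries of the groups overlap, and CD44 KO replicate 2 was the highest. The log2 fold change was 1.07 (SE 0.189, adjusted p = 0.0013, edgeR), and with each of the 12 libraries left out in turn the adjusted p was at most 0.00663. Of the 9 tested genes this was the 1 called in Hs578T, against 7.51% of all genes tested.

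In MDA-MB-231 TSC22D3 was scarce, at 7.37, 8.27 and 9.18 CPM in CD44 WT and at 4.15, 7.57 and 6.22 CPM in CD44 KO. The groups overlap and the log2 fold change was -0.43 (SE 0.266, adjusted p = 0.353, edgeR). Hs578T and MDA-MB-231 differed in this change by 1.504 on the log2 scale (SE 0.326, adjusted p = 0.00841 for the difference itself). It was the 1 gene of 8 called for that difference, against 4.12% of all genes. With 1 library left out the difference ran from 1.21 to 1.75, and its adjusted p rose above 0.01 in 10 of 12 fits, to at most 0.0233. It stayed below 0.01 without Hs578T CD44 KO replicate 1 and without MDA-MB-231 CD44 KO replicate 2.

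TSC22D3 is also abundant in leukocytes. The leukocyte list summed to 4.82 to 5.68 CPM in Hs578T CD44 WT and to 7.51 to 9.31 CPM in CD44 KO, with none of its 5 markers at 0, and the higher sum lay almost wholly in PTPRC, which rose from 0.369 to 3.78 CPM (adjusted p = 3.19e-05, edgeR). CSF1R was at 4.10 and 4.14 CPM in CD44 WT and CD44 KO (adjusted p = 0.982), and CD3E, ITGAM and CD79A were at most 0.52 CPM on average and were not tested. In MDA-MB-231 it summed to at most 2.67 CPM. The part of these markers in the TSC22D3 result was not tested.

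FKBP5, a co-chaperone that lowers the receptor's hormone affinity, was the steadiest of the targets. The Hs578T libraries had 67.9, 70.7 and 65.2 CPM in CD44 WT and 65.9, 68.8 and 63.5 CPM in CD44 KO. The MDA-MB-231 libraries had 121, 125 and 130 CPM in CD44 WT and 134, 119 and 113 CPM in CD44 KO. The groups overlap within each line while the lines stand apart. In CD44 KO it changed by -0.04 in Hs578T (95% interval -0.21 to 0.13, adjusted p = 0.829) and -0.04 in MDA-MB-231 (95% interval -0.20 to 0.13, adjusted p = 0.863, edgeR) on the log2 scale.

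PER1, a clock repressor that glucocorticoids induce acutely, had 19.7, 23.0 and 12.4 CPM in Hs578T CD44 WT and 15.2, 39.8 and 27.1 CPM in CD44 KO. The spread among the CD44 KO libraries exceeded the difference between the groups, and the log2 fold change of 0.58 did not pass (SE 0.265, adjusted p = 0.168). In MDA-MB-231 it had 13.1, 11.03 and 11.5 CPM in CD44 WT and 11.7, 11.6 and 13.8 CPM in CD44 KO, with a log2 fold change of 0.05 (SE 0.287, adjusted p = 0.973).

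DUSP1, a phosphatase that switches off MAP kinases, had 24.1, 29.3 and 20.2 CPM in Hs578T CD44 WT and 12.8, 15.3 and 20.9 CPM in CD44 KO. In MDA-MB-231 it had 50.5, 53.2 and 64.8 CPM in CD44 WT and 40.0, 49.8 and 33.9 CPM in CD44 KO. The MDA-MB-231 groups do not overlap and the Hs578T groups do, in 1 library of each. Neither log2 fold change passed (-0.59 in Hs578T with SE 0.191 and adjusted p = 0.0513; -0.44 in MDA-MB-231 with SE 0.177 and adjusted p = 0.147; edgeR).

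SGK1, a kinase that raises sodium transport and cell survival, had 21.0, 17.9 and 9.06 CPM in Hs578T CD44 WT and 9.31, 7.89 and 8.96 CPM in CD44 KO. CD44 WT replicate 3 lay among the CD44 KO libraries and the other CD44 WT libraries above them. The log2 fold change was -0.88 (SE 0.237, adjusted p = 0.0201, edgeR), short of the threshold. It was -1.16 with an adjusted p of 0.000244 without CD44 WT replicate 3, and DESeq2 gave an adjusted p of 0.00462 on all libraries. In MDA-MB-231 SGK1 had 21.3, 21.8 and 26.9 CPM in CD44 WT and 24.7, 20.8 and 17.8 CPM in CD44 KO, which overlap (log2 fold change -0.14, SE 0.220, adjusted p = 0.758).

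KLF9, a zinc finger repressor, had 41.8, 43.4 and 32.8 CPM in Hs578T CD44 WT and 41.2, 48.2 and 47.8 CPM in CD44 KO, with a log2 fold change of 0.22 (SE 0.202, adjusted p = 0.541). In MDA-MB-231 it was low, at 3.77, 5.19 and 7.66 CPM in CD44 WT and at 1.78, 4.18 and 4.35 CPM in CD44 KO, with a log2 fold change of -0.66 (SE 0.288, adjusted p = 0.176, edgeR). ZBTB16, a zinc finger protein that is among the strongest glucocorticoid-induced genes in many cells, had 0 counts throughout. By counting error this allows a level of up to 0.152 to 0.293 CPM per library, here scaled to the library's total without the TMM factor.

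In MDA-MB-231, 0 of the 8 tested genes other than HSD11B1 were called by edgeR, against 4.62% of all genes. Their log2 fold changes ran from -0.66 to 0.17, 2 of them had an unadjusted p under 0.05, and DESeq2 called 0. Among the 6 tested targets in that line 1 was above and 5 were below 0, and in Hs578T 3 were above and 3 below.

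**Figure D2:**
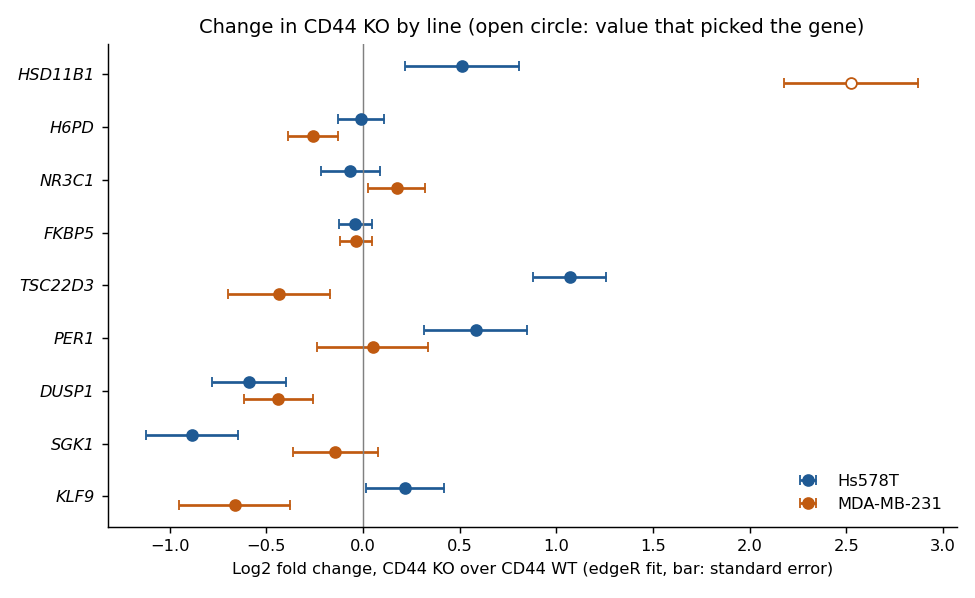
Log2 fold change in CD44 KO for the 9 tested genes in each line, with bars of 1 standard error from the edgeR fit; the open circle is the value on which HSD11B1 was picked. TSC22D3 in Hs578T lies at 1.07, FKBP5 lies at -0.04 in both lines, and DUSP1 and SGK1 lie below 0 without passing the threshold.

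The lines themselves differed far more than CD44 KO and CD44 WT did. Between the CD44 WT groups, 6 of the 8 tested genes other than HSD11B1 were called, against 61.5% of all genes. TSC22D3 was 15.6-fold and KLF9 7.12-fold higher in Hs578T (log2 differences 3.96 and 2.83, adjusted p = 5.84e-10 and 4.39e-08), and H6PD was higher by 1.23 on the log2 scale (adjusted p = 3.69e-07, edgeR). NR3C1, FKBP5 and DUSP1 were lower in Hs578T, with log2 differences of -0.99, -0.88 and -1.19 (adjusted p = 2.70e-05, 2.07e-07 and 2.77e-05). PER1 and SGK1 had log2 differences of 0.63 and -0.54 that did not pass (adjusted p = 0.0554 and 0.0414), and SGK1 passed at -0.79 without Hs578T CD44 WT replicate 1 (adjusted p = 0.00796).

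Levels of different genes were set side by side per kb of exonic length. That length joins all annotated exons of a gene, whether or not they were expressed here, so the order depends partly on annotation. TSC22D3 led in Hs578T CD44 WT at 27.1 CPM per kb, followed by DUSP1 at 12.2, KLF9 at 7.60, H6PD at 7.53, NR3C1 at 6.71, FKBP5 at 6.39, HSD11B1 at 4.77, PER1 at 2.62 and SGK1 at 1.599. From KLF9 to FKBP5, neighbours in this order differed by less than the larger of their SDs, which were 0.258 to 1.10 CPM per kb. In MDA-MB-231 CD44 WT the order began with DUSP1 at 27.8 CPM per kb, NR3C1 at 13.3 and FKBP5 at 11.8. At its end were TSC22D3 at 1.74, PER1 at 1.70, HSD11B1 at 1.33 and KLF9 at 1.07 CPM per kb, each closer to the next than the larger of their SDs. In MDA-MB-231 CD44 KO HSD11B1 reached 7.86 ± 3.02 CPM per kb, beside 6.79 ± 1.42 in Hs578T CD44 KO (SD, n = 3).

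**Figure D3:**
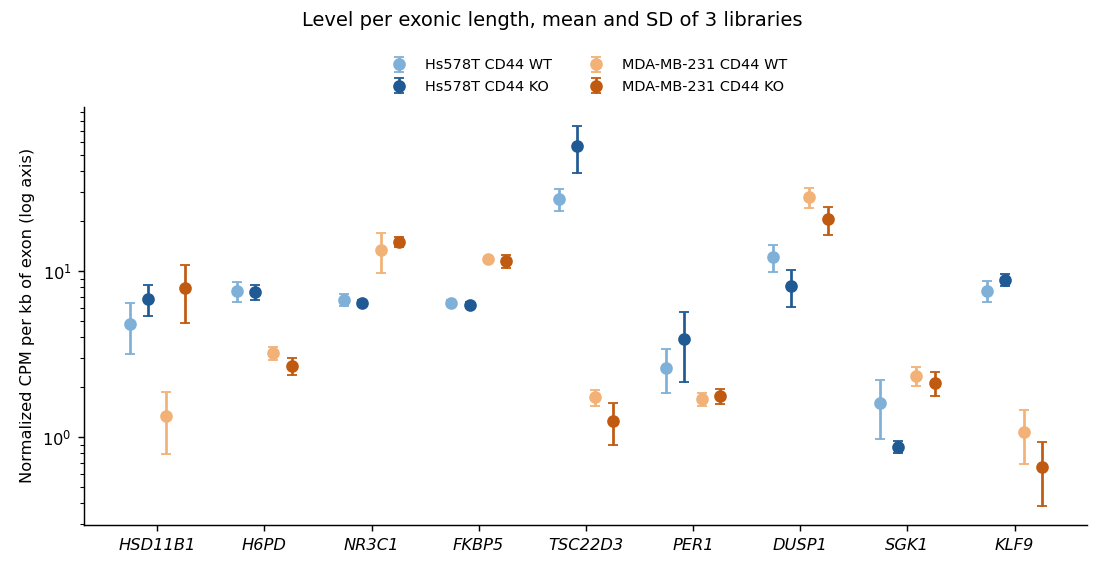
Mean level per kb of exonic length with the SD of 3 libraries, on a log axis, for the 9 tested genes in the 4 groups. TSC22D3 spans from 1.26 CPM per kb in MDA-MB-231 CD44 KO to 56.8 in Hs578T CD44 KO, the widest range shown, while FKBP5 stays between 6.22 and 11.8.

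The remaining genes of the pathway were read from lists chosen for what the genes do. Genes that make, clear or transport cortisol had 10 of 21 members tested, and 1 was called in each line, against 7.51% (Hs578T) and 4.62% (MDA-MB-231) over all genes: AKR1C3, a ketosteroid reductase, rose in Hs578T (2.33 to 7.499 CPM, log2 fold change 1.70, adjusted p = 0.00169), and AKR1C1, which clears progestogens, fell in MDA-MB-231 (1.71 to 0.373 CPM, log2 fold change -2.37, adjusted p = 0.00664). AKR1C3 lost its call in 2 of 12 fits with a library left out (adjusted p up to 0.0137), and AKR1C1 in 8 of 12 (adjusted p up to 0.056) and with its line fitted alone. Both are named after their values were seen, and these near-identical genes may share fragments. Median log2 fold changes of the list were -0.12 (Hs578T) and -0.05 (MDA-MB-231), against -0.0016 and -0.0096 over all genes. HSD11B2, the enzyme that inactivates cortisol, was near the limit of counting at 0.491 and 0.221 CPM in Hs578T and 1.46 and 1.15 CPM in MDA-MB-231, in CD44 WT and CD44 KO, and was not called in either line (adjusted p = 0.251 and 0.623).

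Chaperones and cofactors of the receptor were all 23 tested, and 1 was called in Hs578T, against 7.51% of all genes. BAG1, a co-chaperone that restrains the receptor, fell in Hs578T from 48.5 ± 2.59 to 32.1 ± 7.21 CPM (SD, n = 3, log2 fold change -0.60, SE 0.142, adjusted p = 0.00925), a call lost in 9 of 12 fits with a library left out (adjusted p up to 0.0476). No list member was called in MDA-MB-231 by edgeR (4.62% of all genes) or DESeq2, where 1 had an unadjusted p under 0.05. The medians were -0.03 and -0.0045.

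Other genes induced by glucocorticoids had 28 of 36 members tested, of which 2 rose and 3 fell in Hs578T, and 0 rose and 2 fell in MDA-MB-231. Over all genes 7.51% were called in Hs578T and 4.62% in MDA-MB-231. RGS2, which dampens G protein signalling, rose in Hs578T from 4.49 ± 0.827 to 12 ± 2.01 CPM (SD, n = 3, log2 fold change 1.43, adjusted p = 9.66e-05), in every fit with a library left out. ANXA1, an anti-inflammatory phospholipid-binding protein, rose there from 250.9 ± 137.3 to 615 ± 5.90 CPM (log2 fold change 1.29, adjusted p = 0.00381), a call lost in 4 of those 12 fits (adjusted p up to 0.0223). BIRC3, an inhibitor of apoptosis, fell from 6.95 ± 1.11 to 3.36 ± 0.713 CPM (log2 fold change -1.03, adjusted p = 0.00657) and lost its call in 5 of 12 fits (adjusted p up to 0.0439). CRISPLD2 and SCNN1A, named after their values were seen, had log2 fold changes of -1.13 and -2.29 there (adjusted p = 0.00842 and 0.000388). CRISPLD2 lost its call in 7 of 12 fits (adjusted p up to 0.0509) and SCNN1A in 0 of 12.

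In MDA-MB-231, GLUL, the glutamine synthetase that glucocorticoids raise in muscle and lung, fell from 75.5 ± 1.51 to 27.9 ± 1.88 CPM (SD, n = 3, log2 fold change -1.44, SE 0.0938, adjusted p = 2.38e-07). It fell in every fit with a library left out, while in Hs578T it was at 123 and 113 CPM in CD44 WT and CD44 KO and was not called (adjusted p = 0.407). TFCP2L1, named after its values were seen, fell from 2.99 to 0.901 CPM in MDA-MB-231 (adjusted p = 0.00852), a call lost in 10 of 12 fits with a library left out (adjusted p up to 0.042) and with the line fitted alone. The list had medians of -0.08 (Hs578T) and -0.02 (MDA-MB-231) on the log2 scale.

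Genes that glucocorticoids repress had 14 of 17 members tested, of which 1 rose and 1 fell in each line, against 7.51% of all genes called in Hs578T and 4.62% in MDA-MB-231. CCL2, a monocyte chemokine, fell in MDA-MB-231 from 51.5 ± 17.8 to 3.65 ± 0.695 CPM (SD, n = 3, log2 fold change -3.85, adjusted p = 2.54e-07) and in Hs578T from 5.39 to 1.83 CPM (log2 fold change -1.53, adjusted p = 0.00371), the latter named after its value was seen. The MDA-MB-231 call held in all 12 fits with a library left out, and the Hs578T call was lost in 4 (adjusted p up to 0.0234). VCAM1, an adhesion molecule, rose in Hs578T from 2.52 ± 1.75 to 11.1 ± 4.59 CPM (log2 fold change 2.12, adjusted p = 0.00911), and IL1B, an inflammatory cytokine, rose in MDA-MB-231 from 5.33 ± 2.06 to 21.4 ± 13.5 CPM (log2 fold change 1.99, adjusted p = 0.00453). VCAM1 lost its call in 6 of 12 fits with a library left out and by DESeq2 (adjusted p = 0.0564), and IL1B in 4 of 12 and by DESeq2 (adjusted p = 0.0154). Medians over the repressed genes were 0.74 (Hs578T) and 0.38 (MDA-MB-231) on the log2 scale, against -0.0016 and -0.0096 over all genes. In Hs578T the middle values belonged to CXCL2 (0.106 and 0.170 CPM in CD44 WT and CD44 KO) and CXCL1 (0.0556 and 0.0963 CPM), near the limit of counting.

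Of 8 factors known to act on HSD11B1, 6 were tested. IL1B, which induces HSD11B1 in several mesenchymal cell types, was the 1 called in MDA-MB-231 by edgeR, against 4.62% of all genes. DESeq2 called 0 there, and the IL1B call was also lost in 4 of 12 fits with a library left out and with the line fitted alone. In Hs578T 0 were called by edgeR, against 7.51% of all genes, where 1 had an unadjusted p under 0.05 and DESeq2 called 1, PPARG. CEBPB, a transcription factor of HSD11B1 in liver and fat, was at 70.8 CPM without and 71.3 CPM with CD44 KO in MDA-MB-231, with a log2 fold change of 0.02 (adjusted p = 0.999). The medians of this list were 0.32 in Hs578T and 0.15 in MDA-MB-231.

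DUSP1, SGK1 and PER1 also answer to serum and to the clock, so those genes were read alongside. Immediate early genes had 17 of 20 members tested, of which 1 was called in Hs578T, against 7.51% of all genes: FOSL1, an AP-1 subunit, rose in Hs578T from 12.7 ± 0.933 to 18.6 ± 2.07 CPM (SD, n = 3, log2 fold change 0.55, adjusted p = 0.00746), a call lost in 7 of 12 fits with a library left out (adjusted p up to 0.0469). Neither edgeR nor DESeq2 called any in MDA-MB-231 (0 of 17, against 4.62% of all genes by edgeR), and 2 had an unadjusted p under 0.05. Of the 13 clock genes tested, 0 were called in either line by edgeR or DESeq2, and 0 had an unadjusted p under 0.05. By edgeR 7.51% (Hs578T) and 4.62% (MDA-MB-231) of all genes were called, and lists this short cannot tell 0 from such shares. The medians of these lists were 0.15 and 0.23 in Hs578T and -0.05 and 0.0013 in MDA-MB-231.

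**Figure D4:**
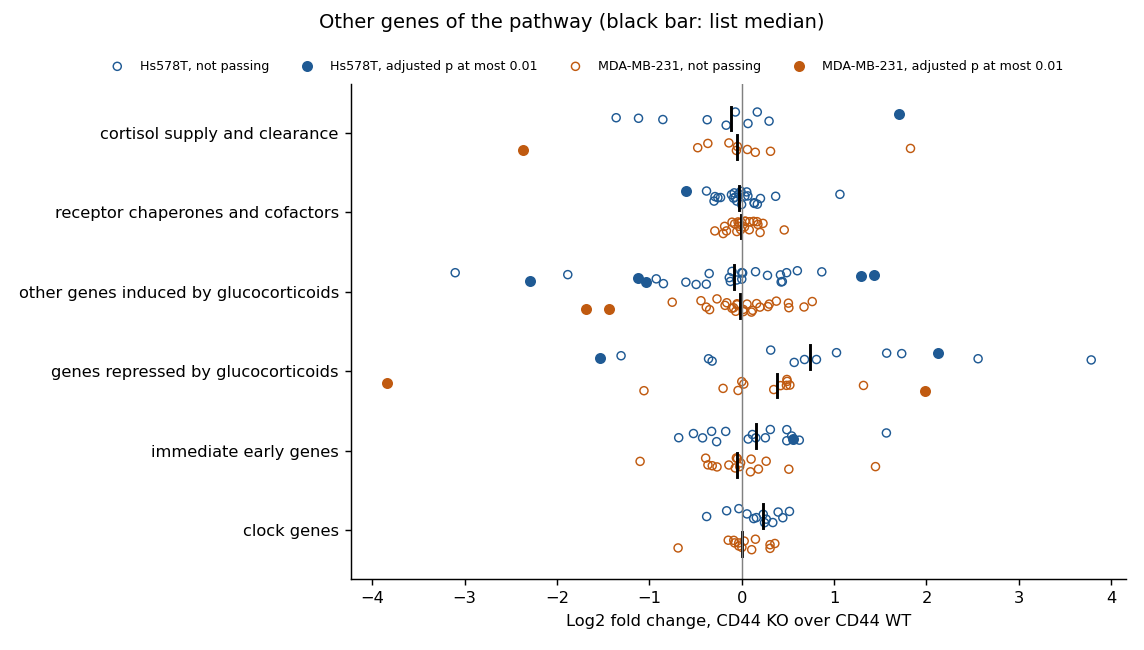
Each point is a tested gene of 1 of 6 lists, at its log2 fold change in CD44 KO, filled where the adjusted p is at most 0.01; black bars are list medians. Called genes lie on both sides of 0 for glucocorticoid-induced and glucocorticoid-repressed genes, from CCL2 at -3.85 in MDA-MB-231 to VCAM1 at 2.12 in Hs578T.

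Along chromosome 1, 20 genes lie within 500 kb of HSD11B1, of which 8 were tested. In MDA-MB-231 0 of these were called by edgeR and DESeq2, against 4.62% of all genes by edgeR, and 2 had an unadjusted p under 0.05. With 8 genes, 0 cannot be told from that share. In Hs578T 2 were called by edgeR, against 7.51% of all genes, and 3 by DESeq2, and 5 had an unadjusted p under 0.05 (edgeR). G0S2, a lipase inhibitor and the nearest tested gene upstream, was at 72.9 CPM in CD44 WT and 97.5 CPM in CD44 KO of MDA-MB-231 (log2 fold change 0.42, SE 0.137, adjusted p = 0.0726). In Hs578T LAMB3, a laminin chain named after its values were seen, was lower in CD44 KO, at 101 and 50.04 CPM in CD44 WT and CD44 KO (log2 fold change -1.01, adjusted p = 0.00129).

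By the root mean square difference of centred log2 CPM over the 12 libraries, LDB2 was the gene most like HSD11B1 (0.457, median over all genes 1.17), with 3.68, 9.08, 1.05 and 5.54 CPM in CD44 WT and CD44 KO of Hs578T and then of MDA-MB-231. C2CD4C, SGPP2, FHOD3 and EEF1A2 followed at 0.492 to 0.547. For FKBP5 the most alike were ARF4 at 0.0629 and MACIR, SMC3, MOCS2 and XPO5 at up to 0.0771 (median 0.639). None of the 9 other genes followed here was among the 5 most like HSD11B1. With so few places among all genes, this absence cannot decide whether those genes vary with HSD11B1. The ranking also includes the MDA-MB-231 libraries on which HSD11B1 was picked.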

How the data were processed

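RNA of sorted CD44 WT and CD44 KO cells was sequenced in 12 libraries. The authors used HISAT2 2.1.0 for alignment on GRCh38 and featureCounts 1.6.2, set to strand, for fragments per GENCODE version 28 gene, and deposited whole-number counts for 58381 genes without normalization. Fragments shared by near-identical genes are lost in such counting. Symbols were found for 57754 genes.

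Testing was limited to genes of at least 300 nt of exons that exceeded 1 CPM in 2 or more libraries. All 12 libraries entered 1 fit of 4 group means with edgeR 4.0.16 in R 4.3.3 (TMM factors, quasi-likelihood test), and calls were made at 0.01 or less after Benjamini-Hochberg adjustment over 15836 genes. CPM are on the TMM scale. Depth of 10257586 to 19725543 counts per library limits weakly expressed genes. Limits for 0 counts use 3 counts over each library's total, without the TMM factor, and cover counting error only.

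The members and lists were chosen with earlier results of these data known. Each member is given in every library. Genes of the other lists were named where they were called, averaged at least 5 CPM in the line and did not overlap between groups, at most 6 per list and line; others are marked as named after their values were seen. Likeness used log2 CPM with a prior count of 2. The fit was tested on simulated data. Alternatives were DESeq2 1.42.0, RLE factors, no filter on low counts or on length, each line alone, an adjusted p of 0.05, blocks by replicate number or by consecutive library numbers, and each library left out. Not every gene near HSD11B1 is reported here.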

Additional observations from a re-analysis of the deposited data

Results flagged for a closer look

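In 7 genes the response to CD44 KO was unequal in the lines when the difference was tested (edgeR, adjusted p up to 0.01), given here as the Hs578T log2 fold change minus that of MDA-MB-231. They were sought among the 8 tested members other than HSD11B1 and the list genes already called in either line. Over all genes 4.12% were called for this difference. That share is not a like baseline, because genes already called in a line are more prone to be called for the difference. TSC22D3 differed by 1.504, with higher counts in CD44 KO in 3 of 3 Hs578T libraries, a call lost in 10 of 12 fits with a library left out. Among other glucocorticoid-induced genes, ANXA1 differed by 1.74, RGS2 by 1.70, GLUL by 1.31, CRISPLD2 by -1.80 and BIRC3 by -1.54. Among repressed genes CCL2 differed by 2.31, having fallen in both lines and further in MDA-MB-231. How the differences of these list genes hold with a library left out is not given here.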

How the results depend on the processing

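In Hs578T, 1 member was called, but 2 with DESeq2 or an adjusted p of at most 0.05 (SGK1 added), 4 without the filter on low counts (DUSP1 and PER1 added too) and 1 to 2 with a library left out. In MDA-MB-231 0 of the 8 others were called in every setting. For the difference between the lines 1 was called, 2 without the low-count filter (KLF9 added) and 0 to 1 with a library left out; without Hs578T CD44 WT replicate 3 the 1 called was SGK1. Between the WT groups the count was 6 to 7 with a library left out. The causes of these moves were not tested. Further settings of the lists and of their named genes were chosen after seeing the data. Without the low-count filter, Hs578T counts were 3 for chaperones, 10 and 4 for induced and repressed genes, 1 for factors acting on HSD11B1, 4 for immediate early and 1 for clock genes; MDA-MB-231 counts were 4, 4 and, for immediate early genes, 1. DESeq2 gave 2 chaperones, 1 factor and 2 immediate early genes in Hs578T, and 1 repressed gene and 0 factors in MDA-MB-231. At an adjusted p of 0.05 Hs578T had 3 chaperones, 1 factor and 3 immediate early genes, while 2253 of all 15836 genes were called. Fitted alone, MDA-MB-231 had 0 supply genes, 1 induced and 1 repressed gene and 0 factors, while 315 of all 13609 genes were called. With a library left out, Hs578T lists ranged over 0 to 1 for supply, 0 to 2 for chaperones, 2 to 6 for induced, 0 to 2 for repressed, 0 to 1 for factors and 0 to 2 for immediate early genes, and MDA-MB-231 lists over 0 to 1 for supply, 1 to 2 for induced, 1 to 2 for repressed and 0 to 1 for factors.

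Deviations of same-numbered libraries from their group means had r from -0.115 to 0.164 by replicate number. By consecutive library numbers r ran from -0.00115 to 0.164. With 3 libraries per group this cannot decide whether either numbering pairs them. A replicate block gave 0 supply genes in MDA-MB-231 and 2 immediate early genes in Hs578T, the block by consecutive numbers also 1 factor in Hs578T, and no block changed a call of a member. Over all genes DESeq2 called 1553 in Hs578T and 1138 in MDA-MB-231, and without the low-count filter 1984 and 1370 were called.

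Signs that turned were all of uncalled values. H6PD in Hs578T was 0.0065 on the log2 scale without the low-count filter and -0.10 to 0.10 with a library left out. Over the left-out libraries the other values whose sign turned ran, on the log2 scale, from -0.11 to 0.0053 for NR3C1 in Hs578T, from -0.020 to 0.36 for NR3C1, from -0.11 to 0.031 for FKBP5 and from -0.019 to 0.13 for PER1 in MDA-MB-231, and from -0.066 to 0.071 for FKBP5 and from -0.37 to 0.012 for DUSP1 in the difference between the lines. PER1 in MDA-MB-231 was -0.13 under the replicate block by number. Low depth limits HSD11B1 in MDA-MB-231 CD44 WT, with 15 to 36 counts per library.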
